A study of Mus musculus with 188 samples.

Results

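The S100 genes described here are 10 genes of mouse chromosome 3, S100a3, S100a4, S100a6, S100a8, S100a9, S100a10, S100a11, S100a13, S100a14 and S100a16. They were taken as the rows of the count table whose Ensembl identifier carries one of these symbols, and all 10 were found among 49585 gene rows. They were followed through basal keratinocytes, sorted singly from tail skin of mice at postnatal day 20, 94 cells on each of 2 plates. Well columns of plate 2 are numbered 13 to 24 here and 1 to 12 in the sample titles. The cells came from the interfollicular epidermis, the skin between the hair follicles. The mice carried Lrig1-CreERT2 and RosaYFP, in which cells with an active Lrig1 gene and their progeny can be labelled by yellow fluorescent protein after Cre induction. The sort kept cells that were Cd34-, Itga6+ and YFP-, after overnight digestion with trypsin in the cold. Every cell had this genotype, age and gate, so there was 1 group and no contrast between conditions. No animal is named in the labels, so the cells counted as 1 sample, all spreads are spreads between cells, and no p-value was computed.

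S100 proteins are small calcium-binding proteins that fold around a pair of EF-hand loops and mostly act as dimers. Calcium opens a surface on the dimer that binds partner proteins such as annexins, cytoskeletal proteins and membrane proteins. Most of the genes lie in the epidermal differentiation complex, a stretch of the genome that also holds genes of the cornified layer. S100a8 and S100a9 together form calprotectin, which neutrophils carry in large amounts and which keratinocytes make in wounded or inflamed skin.

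Each cell was 1 Smart-seq2 library, with 79868 to 1093805 counts over genes (median 369991) and 5821 to 8720 genes with a read. Levels are in CPM, the counts of a gene per 1000000 counts over genes in its cell, spike-in RNA left out. The Itga6 and Cd34 parts of the gate were matched by the counts. Itga6, the sorted integrin, averaged 646 CPM ± 400 (SD over cells), and no read of Cd34 was found in any cell. The YFP part was not tested. Lrig1 itself averaged 7.25 CPM ± 33.4 and reached 10 CPM in 19 cells. The basal keratin Krt14 averaged 32410 CPM ± 14096 and the suprabasal keratin Krt10 averaged 4864 CPM ± 8809. Markers of immune cells were near 0: summed over each list, they averaged 2.57 CPM for neutrophils and monocytes (4 of 8 genes without a read), 1.16 CPM for Langerhans cells (1 of 4) and 0.00625 CPM for T cells (3 of 4). Reads of genes high in a few wells were also found in other wells. For 19 genes high in at most 3 wells, rates were fitted per 10000 reads in a high well. They were 36.9 reads in a well of its lettered row, 11.3 in one of its column and 2.91 in any other. The fit takes the high wells as the source of these reads, which was not tested. At these rates a median of 14.8% of a cell's counts, and 4.80% to 78.7% over cells, would come from other wells, and each member's count was set beside that expectation.

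The genes form 2 blocks on chromosome 3 (GRCm38, GENCODE M21). S100a13 (90514435 to 90524581), S100a14 (90526856 to 90528837), S100a16 (90537254 to 90543151), S100a3 (90560578 to 90602702), S100a4 (90603771 to 90606045), S100a6 (90612882 to 90624181) and S100a8 (90668978 to 90670035) follow each other on the plus strand. S100a9 (90692632 to 90695721) closes that block on the minus strand. S100a11 (93520488 to 93526287) and S100a10 (93555080 to 93564643), both on the plus strand, lie apart from it. All 10 are protein coding. The bases just before the RefSeq start (GRCm38.p6) are shown for 4 members. They are S100a8 and S100a9, which were high in the same single cell, and S100a6 and S100a16, which went opposite ways with Krt10 in CPM. Letters run 5′ to 3′ on the gene's strand, and capitals mark matches, on either strand, to 4 motifs that do not overlap each other in the lines shown. They are the TATA box (TATAAA), the AP-1 site (written TGANTCA), the C/EBP site (searched as TTGCNNAA) and the GC box (GGGCGG).
S100a8 (chr3:90668821-90668977, plus strand): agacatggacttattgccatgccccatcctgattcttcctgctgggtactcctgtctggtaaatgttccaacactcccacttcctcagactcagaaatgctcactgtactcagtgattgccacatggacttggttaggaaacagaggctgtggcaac
S100a9 (chr3:90695722-90695971, minus strand): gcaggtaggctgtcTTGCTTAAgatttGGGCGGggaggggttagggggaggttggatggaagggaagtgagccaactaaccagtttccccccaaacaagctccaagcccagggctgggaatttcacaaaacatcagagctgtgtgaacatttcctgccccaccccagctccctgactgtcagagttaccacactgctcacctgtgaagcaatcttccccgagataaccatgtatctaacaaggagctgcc
S100a6 (chr3:90612644-90612881, plus strand): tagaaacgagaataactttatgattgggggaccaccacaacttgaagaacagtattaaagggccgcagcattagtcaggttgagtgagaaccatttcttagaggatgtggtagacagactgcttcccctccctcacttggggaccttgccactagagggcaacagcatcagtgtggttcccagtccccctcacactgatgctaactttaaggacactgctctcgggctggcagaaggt
S100a16 (chr3:90537004-90537253, plus strand, the first of 2 starts): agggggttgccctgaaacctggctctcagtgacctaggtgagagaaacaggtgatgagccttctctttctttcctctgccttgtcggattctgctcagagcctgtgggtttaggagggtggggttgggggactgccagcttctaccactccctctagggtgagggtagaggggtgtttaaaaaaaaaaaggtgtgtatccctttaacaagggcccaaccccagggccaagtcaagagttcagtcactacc
For S100a8 the 93 bases nearest the RefSeq start, and for S100a6 the nearest 12, are exon in GENCODE M21 and are not shown. The TATA box of S100a8 stands 30 bases before its RefSeq start, in the bases not shown. S100a9 has a C/EBP match 236 bases and a GC box 223 bases before its start, and no TATA box. The windows of S100a6 and of the first S100a16 start held none of the 4 motifs. The window of the second S100a16 start, not printed, has an AP-1 match 192 bases and a GC box 30 bases before it. Among the members not printed, S100a3 has a TATA box 52 bases before 1 of its starts and a GC box before another. S100a4 has a TATA box 31 bases before its start, and S100a11 has 2 AP-1 matches and 3 GC boxes, the nearest at 38 and 24 bases. Over 32536 distinct RefSeq windows of 250 bases, 12.3% hold the TATA box, 6.73% the AP-1 site, 9.57% the C/EBP site and 32.97% the GC box. A match describes the letters and is not a bound site. S100a10 and S100a14 had no matching entry.

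The members separated into 5 that were read in every cell, 3 read in part of the cells, and the calprotectin genes, which were close to absent outside 1 cell. S100a6, also called calcyclin, had the highest level, from 227 CPM in the lowest cell through a median of 1756 to 10056 in the highest. S100a10, the partner of annexin Anxa2, ran from 333 through 1201 to 4555 CPM. S100a16, an epithelial member, ran from 101.9 through 853 to 3004 CPM. S100a6 thus spread over a wider range than S100a10, and the ranges of these 3 genes overlapped widely. S100a14, another epithelial member, ran from 63.4 through 495 to 2363 CPM. S100a11, a partner of annexin Anxa1, ran from 71.7 through 371 to 1081 CPM and was the most even of the family, with an SD of 0.462 times its mean against 0.777 for S100a6.

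**Figure D1:**
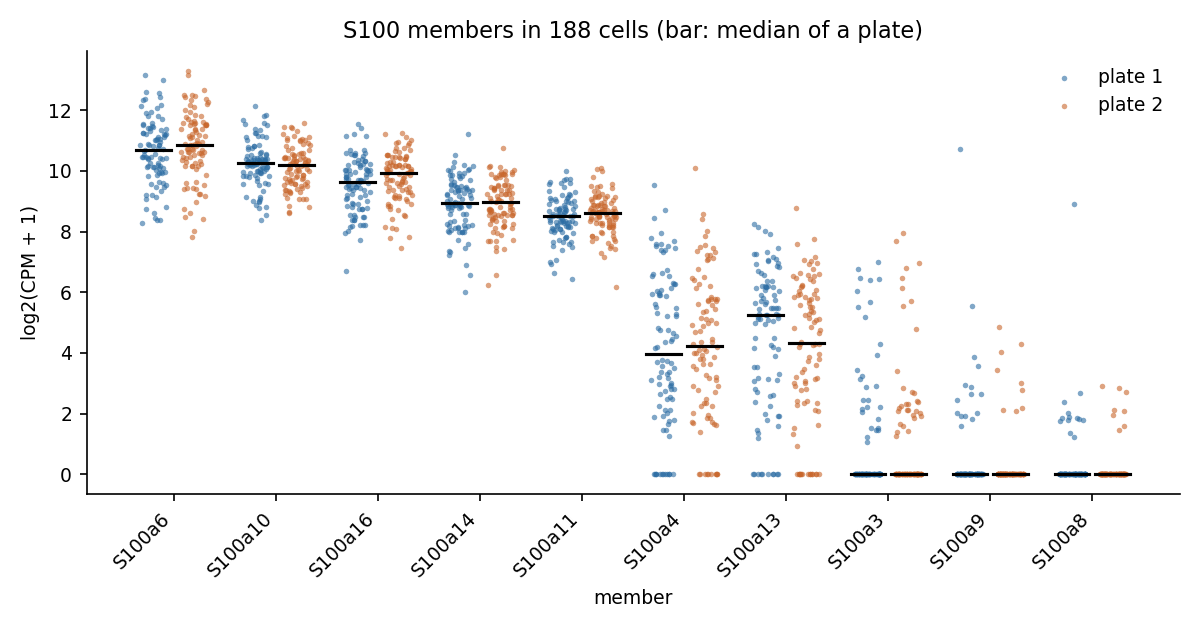
Level of each S100 member in each cell as log2(CPM + 1), by plate; each point is a cell and each bar the median of a plate. S100a6, S100a10, S100a16, S100a14 and S100a11 were read in all cells, S100a4 and S100a13 ran from 0 to 1098 and 433 CPM, and S100a8 and S100a9 had a median of 0.

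Per kilobase of merged exons, which allows levels of different genes to be set side by side, the order was S100a6 (mean 1634 CPM per kilobase), S100a10 (1092), S100a11 (798), S100a16 (587) and S100a14 (328). S100a4 (102.3) and S100a13 (68.1) followed at a distance, and S100a9 (19.5), S100a8 (4.19) and S100a3 (1.73) were lowest. The values of S100a9 and S100a8 rest on 1 cell, described below, so no order is read among the last 3. S100a11 therefore stood above S100a16 and S100a14 per kilobase although it was below both in CPM. The lengths join the exons of all annotated transcripts (511 bases for S100a11, 1617 for S100a16 and 1727 for S100a14). This order depends on them, and the transcripts used in these cells were not tested. The annotated exons of S100a3 cover 5660 bases, far more than those of any other member, which lowers its value on this scale. Gm42674, a gene on the same strand, is annotated over 51.7% of the exon bases of S100a4 and had 0 reads in all cells. Reads that fit both genes may have been given to neither, so the level of S100a4 may be too low.

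The 10 members together made up 5610 CPM ± 2447 (SD over cells), from 1728 to 17705. By CPM, S100a6 was the leading member in 120 cells, S100a10 in 40, S100a16 in 26 and S100a14 in 2. This count and the shares of the family's counts are not corrected for exon length, so a short gene such as S100a11 (511 exon bases) is placed low in them. S100a6 made up a median of 35.6% of the family's counts in a cell, with 7.04% in the lowest and 72.3% in the highest cell. The composition of the family therefore differed widely between cells of the same gate. S100a6 averaged 2083 CPM ± 1648 on plate 1 and 2383 ± 1812 on plate 2 (SD, 94 cells each), and S100a10 averaged 1396 ± 779 and 1251 ± 606. For these 2 genes the difference between plates was smaller than the spread between cells. The median of S100a13 was 36.88 CPM on plate 1 and 18.97 on plate 2. All 5 genes were at 10 CPM or more in 100% of cells. Counts above 3 times those expected from other wells were seen for S100a11 in 86.7% of cells, S100a10 in 83.5%, S100a16 in 77.7%, S100a14 in 76.6% and S100a6 in 72.3%. Krt14 and Itga6, also at 10 CPM or more in 100% of cells, passed this line in 78.7% and 75% of cells. These shares are therefore not read as shares of cells that express a gene. With the reads expected from other wells subtracted, S100a10 was still at 10 CPM or more in 99.5% of cells and S100a6 in 97.3%.

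S100a4, a metastasis-associated member that binds the non-muscle myosin Myh9, ran from 0 through a median of 16.96 to 1098 CPM. It reached 10 CPM in 60.6% of cells (exact Clopper-Pearson 95% interval 53.3% to 67.7%) and passed 3 times the background in 78 cells. Its highest cells, at 1098 CPM in well H20 of plate 2 and 741 CPM in well G6 of plate 1, carried 41208 and 33753 CPM of Krt14, beside a median of 34405 over all cells. The cell with the next level, 417 CPM in well E11 of plate 1, had 3537 CPM of Krt14 and 13225 CPM of Krt10. High S100a4 was therefore found in cells with Krt14 near or above the median and in a cell far below it. None of these 3 cells had a read of the 8 neutrophil and monocyte or the 4 T cell markers listed.

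S100a13, which takes part in the release of Fgf1 from cells, ran from 0 through 32.4 to 433 CPM and reached 10 CPM in 65.4% of cells (58.2% to 72.2%). It passed 3 times the background in 94 cells. S100a3, best known from the hair cuticle, had a median of 0 and a highest value of 245 CPM, in well A21 of plate 2. It reached 10 CPM in 20 cells (10.6%, 6.62% to 15.95%), which is just above the 10% of cells asked of a gene for the relations below. A count of at least 3 reads and above 3 times the background was also found in 20 cells. These 3 genes were thus present in some cells and not detected in others, and for counts this low a 0 does not show that the RNA was absent.

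The calprotectin genes were read at a high level in a single cell. The cell in well D3 of plate 1 held 279 reads of S100a8 (482 CPM) and 986 of the 1050 S100a9 reads in the table (1703 CPM). In the other cells S100a8 reached at most 6.56 CPM and S100a9 at most 45.7 CPM. Of these S100a9 reads, 58 lay in 19 of the 23 other wells of lettered row D, over both plates, and 6 in 4 of the 7 other wells of column 3. The wells outside this row and column had 0 reads, which allows a share of wells with a read of up to 1.91%. The wells with S100a9 thus formed the row and the column of that 1 cell. Per 10000 reads in D3, a well held 25.6 reads of S100a9 in the row and 8.69 in the column, beside 36.9 and 11.3 from the other genes. S100a8 had 13 reads in 11 wells of the row, 3 in 3 wells of the column and 7 in 6 wells elsewhere, or 20.3, 15.4 and 1.60 per 10000. The origin of the reads in each well was not tested. S100a8 passed 3 times the background in 10 cells, none of which but D3 had over 2 reads. With a minimum of 3 reads, added after seeing the data, D3 alone passed for either gene. Without that cell the mean fell from 10.2 to 1.12 CPM for S100a9 and from 2.91 to 0.348 CPM for S100a8.

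**Figure D2:**
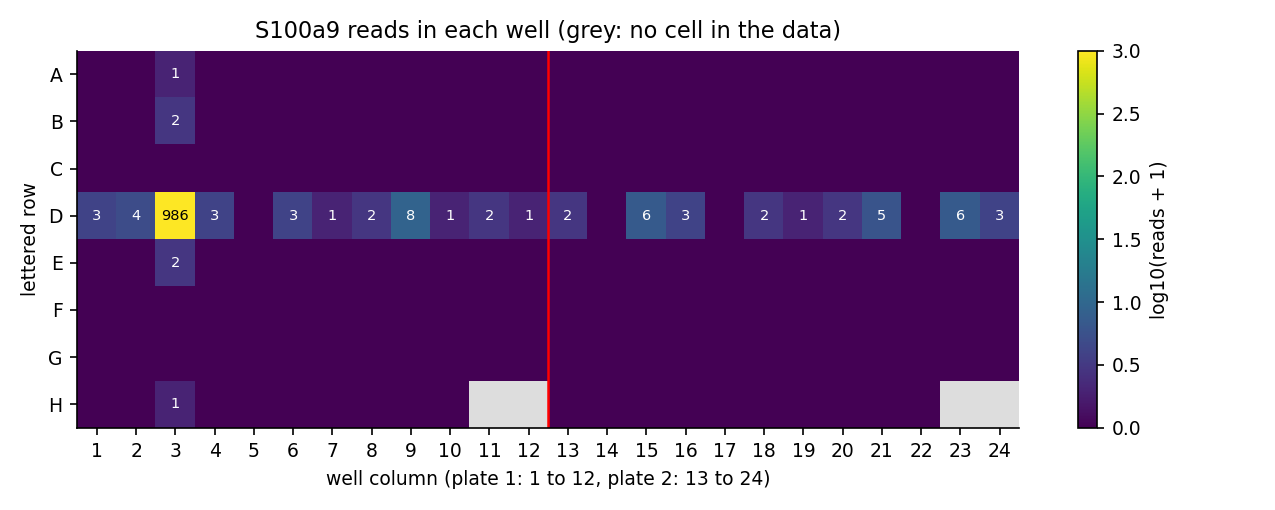
Reads of S100a9 in each well, by lettered row and well column, coloured by log10(reads + 1) with the read count printed where it is above 0; grey wells hold no cell of the data and the red line parts the plates. The 986 reads of well D3 stand out, and every other well with a read is in row D or column 3.

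The D3 cell was deep but not extreme, with 578864 counts (the 37th highest) and 7610 genes with a read (the 89th highest). It had the highest sum of members of all cells, 17705 CPM. It also had the highest S100a14 (2363 CPM) and S100a16 (3004 CPM), the third highest S100a10 (3614 CPM) and the 8th highest S100a11 (829 CPM), while S100a13 (38.01 CPM) and S100a4 (10.4 CPM) were unremarkable. Of 2196 genes at 100 CPM or more in this cell, 90 were higher there than in any other cell. The same count is not given for other cells, so 90 is not read as unusual. Basal markers were present, with 17614 CPM of Krt14 and 8857 of Krt5, below the medians of 34462 and 21689 in the other cells, and 1100 of Itga6 against 560. Krt10 was at 231 CPM. Keratins of wounded epidermis were high: Krt16 at 1227 CPM against a median of 48.8 in the other cells, Krt6a at 1968 against 16.7 and Krt17 at 2628 against 38.9. The highest other cells had 7583, 3618 and 6776 CPM of these genes. D3 ranked 14th, 3rd and 2nd for them, so such levels were not particular to it. Of the 8 matched wound and alarm genes, however, 3 had a read in this cell and 2, Krt6a and Krt17, reached 10 CPM. Of the 4 upper follicle markers, a list that also holds Krt17, 2 had a read and they summed to 3754 CPM. The other was Plet1, at 1126 CPM higher than in any other cell, while Lrig1 and Krt79 had no read. Of the 4 hair follicle bulge markers, 1 had a read, at 39.7 CPM. The part of follicle cells in these values was not tested. No read was found in this cell of the 8 neutrophil and monocyte markers, the 4 Langerhans cell markers or the 4 T cell markers. Other genes above any other cell, chosen after their values were seen, included the matrix proteases Mmp3 (4158 CPM against at most 492) and Mmp9 (195 against at most 8.69). The potassium channel Kcnn4 (506 against at most 79.3) and the integrin Itgb6 (525 against at most 182.01) were others. They are a selection without a common theme tested. Abca14 (250 against at most 6.04) and Gm43154 (112.3 against at most 3.05) stood further above the next cell than any of these 4. These values describe 1 cell and have no replicate.

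With Krt14, the keratin of the basal layer, 1 of 8 members tested passed the rule of Spearman's rho of at least 0.3 on both plates, and it was S100a6. Its rho was 0.433 over all cells, 0.338 on plate 1 and 0.540 on plate 2, so cells with more Krt14 tended to have more S100a6. Among all 9344 genes tested the same rule called 0.268% as higher with Krt14, and 0.214% as lower. S100a6 stood at percentile 99.9 of the tested genes. S100a10 came next, with rho 0.276 (0.253 and 0.295), and missed the rule on both plates. S100a16 had a negative rho, -0.258, which was -0.425 on plate 2 and only -0.055 on plate 1. All points share a denominator, the cell's total, of which Krt14 itself is a part, and cells are not independent samples.

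**Figure D3:**
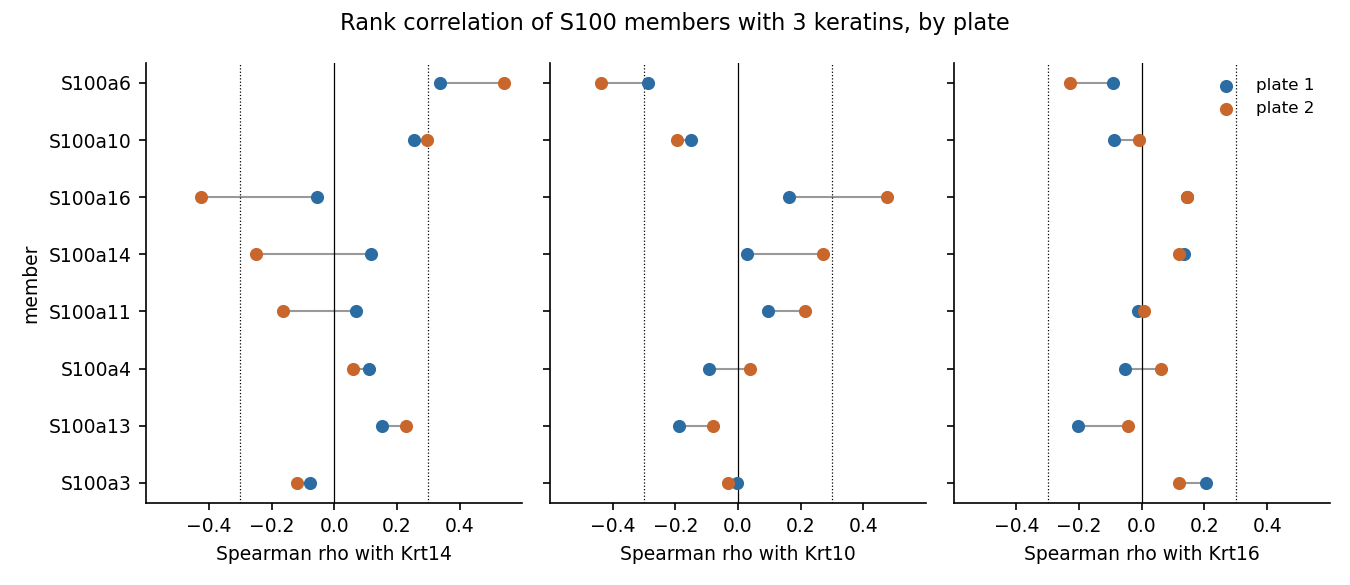
Spearman's rho of 8 S100 members with Krt14, Krt10 and Krt16 CPM over cells, on plate 1 (94 cells) and plate 2 (94 cells); dotted lines mark -0.3 and 0.3. S100a6 with Krt14 is the pair with both plates past the same line, at 0.338 and 0.540.

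With Krt10, the keratin of cells that leave the basal layer, no member passed the rule on both plates. The background was 0.631% of genes higher and 0.471% lower. S100a6 had rho -0.326 (-0.287 on plate 1 and -0.436 on plate 2) and S100a16 had rho 0.341 (0.161 and 0.474). In CPM, S100a6 and S100a16 thus went opposite ways over the same cells, each past the line on plate 2 alone. S100a14 (0.141), S100a11 (0.166), S100a13 (-0.148) and S100a10 (-0.181) had smaller values. Counts per spike-in read, which by construction move together with a cell's total RNA, gave S100a6 a rho with Krt10 of only -0.0890 (-0.0735 and -0.178). On that scale S100a16 had 0.501 (0.395 and 0.585), so the opposite course was weak on the side of S100a6. With Krt16, the keratin of wounded and fast-growing epidermis, no member passed either, against 0.0535% of genes higher and 0.0107% lower. The values ran from -0.146 for S100a6 to 0.162 for S100a3. Krt16 passed 3 times the counts expected from other wells in 28.7% of cells, so low values of rho do not show that a relation is absent. Krt14 and Krt10 were themselves opposed (rho -0.520), so the relations with them are not separate results. Given Krt10, the partial rank correlation of S100a6 with Krt14 was 0.326 (0.244 and 0.386), and given Krt14 that of S100a6 with Krt10 was -0.131.

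In the 47 cells lowest in Krt14, S100a6 ran from 227 through a median of 1257 to 5573 CPM. In the 47 cells highest in Krt14 it ran from 426 through 2759 to 9080 CPM, so the medians differed 2.19-fold and the ranges overlapped. By Krt10 the order was reversed, with a median S100a6 of 2357 CPM in the 47 lowest and 1142 CPM in the 47 highest cells. S100a16 had medians of 763 and 1257 CPM in the 47 lowest and 47 highest cells by Krt10, and 1170 and 793 CPM by Krt14. S100a13 had medians of 8.26 and 38.01 CPM in the lowest and highest cells by Krt14. Its rho with Krt14 was 0.196 (0.152 and 0.228), short of the rule, and the lower median is under 10 CPM. S100a11 hardly differed, with medians of 418 and 398 CPM. These sets are ranges of a measured value and not cell types: 92 cells lay within 25% of the lower edge of the set highest in Krt14. The set lowest in Krt14 held 17 cells of plate 1 and 30 of plate 2, and its median total was 361282 counts against 406644 in the highest. The part of plate and depth in these differences was not tested beyond the values on each plate. The rho of S100a6 with total counts was -0.0317, with the spike-in share 0.0650 and with the mitochondrial share -0.0118. For S100a16 the rho was -0.226 with the spike-in share and -0.253 with the mitochondrial share. For Krt10 it was -0.258 with total counts and 0.237 with the share expected from other wells. The part of these measures in the relations was not tested.

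**Figure D4:**
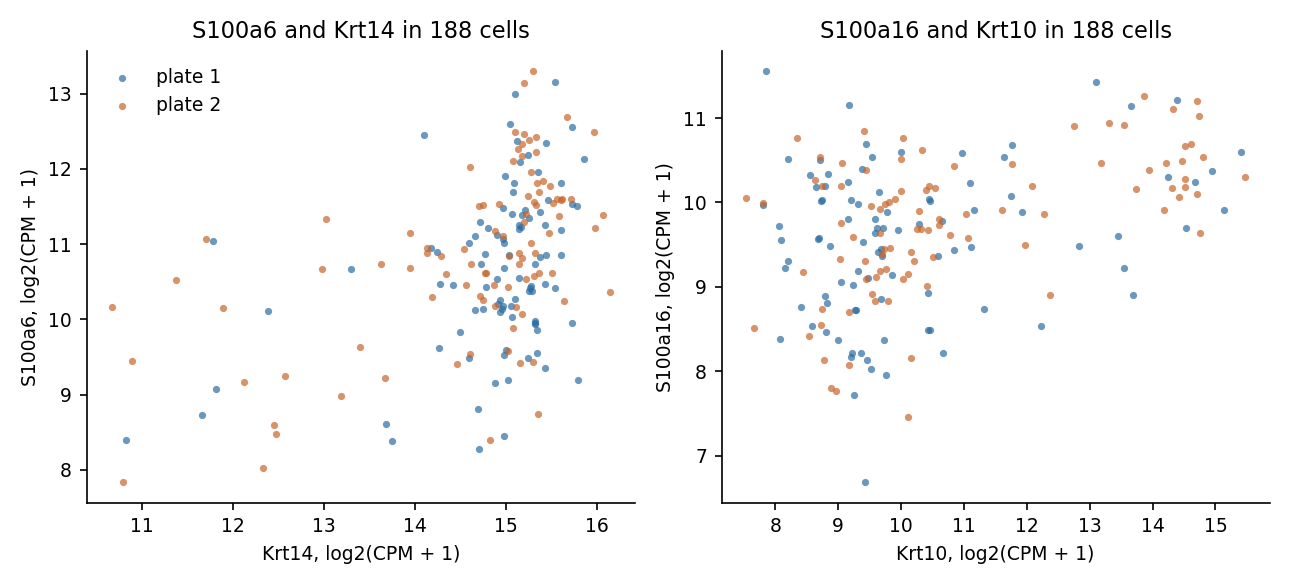
S100a6 against Krt14 and S100a16 against Krt10 in each cell, both axes as log2(CPM + 1), coloured by plate. The median S100a6 is 1257 CPM in the 47 cells lowest and 2759 in the 47 highest in Krt14, and the median S100a16 is 763 and 1257 CPM by Krt10, with wide overlap of single cells in both panels.

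Both relations were weaker without the cells at one end, a setting added after seeing the data. Without the 47 cells lowest in Krt14, rho of S100a6 with Krt14 was 0.293 (0.250 and 0.311) and no longer passed the rule. Without the 47 cells highest in Krt10, rho of S100a16 with Krt10 was 0.0403 and that of S100a6 with Krt10 was -0.0720. The opposite course of S100a6 and S100a16 in CPM was therefore seen between cells with much and with little Krt10, and hardly among the rest. Krt10 passed 3 times the counts expected from other wells in 26.6% of cells, and the rest span a smaller range of Krt10. A rho near 0 among them does not show that a relation is absent. Without the 10% shallowest cells, rho of S100a6 with Krt14 was 0.393 (0.282 and 0.513), which misses the rule on plate 1. With Pearson's r on log2(CPM + 1), S100a6 passed the rule as lower with Krt10 (-0.375 and -0.488). With the reads expected from other wells subtracted, S100a6 still passed with Krt14.

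Whether the members varied more than technical noise depended on how the spike-in RNA was scaled. The measure is the squared coefficient of variation over cells, divided by the trend of the spike-ins at the same mean, on each plate, for genes with a mean of at least 50 CPM. With spike-ins divided by the same total as the genes, 0 of 6 members tested reached a ratio of 2 on both plates, beside 0.38% of all genes. On that scale the spike-ins themselves vary with the RNA content of each cell, and the trend levelled off at 0.982 on plate 1 and 0.277 on plate 2. With spike-ins divided by their own total, a choice added after the first was seen, 3 of 6 members passed, beside 3.5% of all genes. They were S100a6 (lower ratio of the plates 11.7), S100a10 (2.49) and S100a16 (2.17), while S100a4 (1.86), S100a14 (1.31) and S100a11 (0.729) did not. S100a6 had the largest ratio of the members on this scale, and S100a11 varied no more than spike-ins of its level. The trend here levelled off at 0 on both plates, so for an equal spread the ratio rises with the mean. S100a4 had a larger squared coefficient of variation (3.21 and 4.63) than S100a6 (0.626 and 0.578), but a smaller ratio. The 3.5% takes in all genes from 50 CPM up and was not matched for level. The highest spike-in mean was 1353 CPM on this scale, so the trend at the mean of S100a6, 2233 CPM, lies beyond the spike-ins measured.

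**Figure D5:**
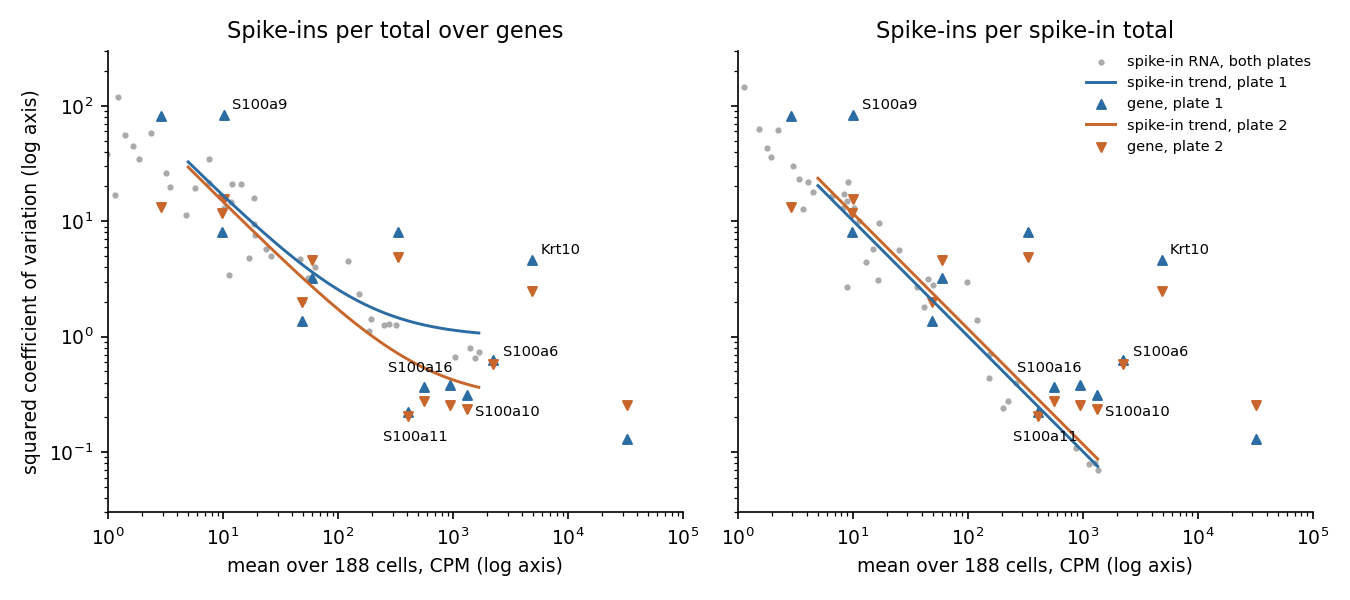
Squared coefficient of variation over cells against mean CPM, both on log axes, for the S100 members and the 3 keratins (triangles, by plate) and for spike-in RNA (grey), with the fitted spike-in trends drawn up to the highest spike-in mean. On the left spike-ins are divided by the total over genes. There the 6 members tested, with a mean of at least 50 CPM, lie under or less than 2 times above the trends. S100a9 (8.99 times the trend) and S100a8 (2.75 times) lie above it on plate 1 and were not tested. On the right spike-ins are divided by their own total, and S100a6, S100a10 and S100a16 reach 2 times the trends on both plates. S100a6 lies past the drawn end of these trends. S100a4 (1.86 and 2.38 times) and S100a14 (2.07 and 1.31 times) also lie above them. On plate 1 so do S100a9 (15.7 times) and S100a8 (4.42 times), not tested.

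Over the 28 pairs of 8 members, the median rho was 0.0161, with 12 pairs positive and 6 negative on both plates. None reached 0.3 on both plates, beside 0.00707% of all pairs of genes, so nothing is read from that count. The highest pair was S100a10 with S100a11, 28793 bases apart, at 0.320 (0.400 and 0.233). S100a11 with S100a16, in different blocks, had 0.273 (0.272 and 0.252), and S100a14 with S100a16, 8417 bases apart, had 0.235. S100a6 with S100a16 had 0.0362, 0.189 on plate 1 and -0.148 on plate 2. Pairs within a block had a median of -0.0323 (16 pairs) and pairs across blocks 0.0367 (12 pairs). S100a13 and S100a1, which are read away from each other and whose RefSeq windows of 250 bases before to 50 after the start share 204 bases, had rho -0.0223, and both reached 10 CPM in 48 cells.

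Genes outside the family whose levels ran most like a member were taken by the lower of the 2 plate values of rho. For S100a6 they were Col18a1, which codes for a basement membrane collagen (0.416), Txndc17 (0.391) and Sod1, the cytosolic superoxide dismutase (0.359). The lowest was Dapl1, with -0.390 on the plate nearer 0. For S100a16 they were Serpinb5 (0.362), Sfn (0.341), which codes for the epithelial protein stratifin, and Ly6d (0.337), and for S100a14 Sfn (0.371), Serpinb5 (0.320) and Eif5a (0.307). S100a14 and S100a16 thus had 2 of their 3 genes in common. S100a10 had Tmsb4x, a binder of actin (0.366), and Them5 lowest (-0.307). S100a11 had Fam25c (0.311) and Cstb, a protease inhibitor (0.303). The lowest were Slf1 with S100a11 (-0.345), Tsix with S100a14 (-0.328), whose reads cannot be told from those of its antisense partner, and CT010467.1 with S100a16 (-0.310). CT010467.1 averaged 78618 CPM, a large part of the total by which every gene is divided. The part of that shared total in its rho was not tested. For S100a3, S100a4 and S100a13 no gene reached 0.3 on both plates.

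Among genes whose proteins bind S100 proteins, 6 of 9 listed were detected widely enough for the keratin relations. Anxa2, the partner of S100a10, averaged 3829 CPM ± 1106 and Anxa1, the partner of S100a11, 1612 ± 815 (SD over cells). Ahnak, a large scaffold that binds S100a10 with Anxa2, averaged 1312 ± 565, and Cacybp, which binds S100a6, averaged 184.7 ± 137.6. Anxa1 was higher with Krt10, with rho 0.411 (0.313 and 0.493), and was the only one of the 6 to pass with any of the 3 keratins. Plat, Fgf1 and Il1a were too low to be run.

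Of 7 receptors listed for secreted S100 proteins, 3 were detected widely enough: Bsg (556 CPM ± 266), Nptn (180.2 ± 137.1) and Alcam (12.5 ± 31.9), and none passed with a keratin. Ager, the receptor known as RAGE, averaged 0.148 CPM, and Tlr4, the calprotectin receptor of myeloid cells, had no read in any cell. Of 7 further S100 genes, 6 were matched and S100a1 alone was detected widely enough, at 31.9 CPM ± 67.6, with no relation to a keratin. S100a7a, the mouse psoriasin gene, reached 10 CPM in 3 cells. The fused-type S100 genes of the cornified layer were low, with Tchh at 13.2 CPM ± 33.7, Hrnr at 8.05 ± 27.1 and Flg at 6.24 ± 28.3. Of 8 wound and alarm genes matched, 4 were run and none passed with a keratin, and Krt17 (150 CPM ± 559) and Krt6a (137.3 ± 428) were the most abundant. Reads of Krt6a may be split with its close copy Krt6b. Lcn2, an alarm gene often seen with calprotectin, averaged 0.745 CPM and had no read in the D3 cell.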

How the data were processed

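The values are raw read counts, whole numbers for each gene and cell, as the authors deposited them for 188 single cells. Per the submitters' processing notes, the tools were HTSeq 0.6.0, STAR 2.5.2b and cutadapt 1.13, with the build GRCm38. Order, settings and annotation release: not given in the sources used here. Smart-seq2 reads carry no molecular identifiers. The intervals and limits treat cells or wells as independent draws and cover no spread between animals. Use of strand in the counting is not stated. CPM were computed from each cell's sum over 49585 gene rows, without 92 spike-in rows. No cell was left out, and no doublet caller was run on cells sorted singly. Symbols came from a gene name table (49326 identifiers matched) and promoters from RefSeq.

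For the relations, a gene had to reach 10 CPM in 10% of cells or more. Spearman's rho was taken on each plate, and a call needed 0.3 or more, or -0.3 or less, on both. The genes named were the members, up to 3 most alike genes and the 1 least alike by the plate nearer 0, and genes of the lists past the rule or among their 4 most abundant. Of the genes this rule selects, 1 is not reported here. The members and lists were chosen with earlier results of these data known. The settings for reads from other wells (genes with at least 200 reads in their highest well, up to 3 source wells at 5% of that or more, and 70% of the other wells at 0) were picked after several had been tried with member values in view. The motifs, the promoters printed, the 3-read minimum, the second spike-in scale and the account of the D3 cell were also chosen after seeing the data. Scripts used Python 3.11.15, numpy 2.4.6, pandas 2.3.3, scipy 1.17.1 and scran 1.30.0 (R 4.3.3), and were tested on simulated data.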

Additional observations from a re-analysis of the deposited data

How the results depend on the processing

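The count of members called with Krt14 was 1 (S100a6) under 12 of 17 other settings. It was 2 with counts per spike-in read and with a rho limit of 0.2 (S100a10 added), and 0 without the 10% shallowest cells, given Krt10, and without the 47 cells lowest in Krt14. The rho of S100a6 was then 0.393, 0.326 and 0.293, still positive on both plates, and the cause was not tested. With Krt10 the count was 2 with counts per spike-in read (S100a11 and S100a16, both higher), and 1 (S100a6, lower) with a rho limit of 0.2 and with Pearson's r on log2(CPM + 1) or log2(CPM + 10). By construction, counts per spike-in read move together with a cell's total RNA. With Krt16 the count was 0 under every setting run. Over-dispersed members were 0 under every setting run but the spike-ins' own total, where they were 3. No pair of members was called under any setting run, and leaving out the D3 cell changed no count. Other ways of choosing the genes for the reads from other wells gave 32.5 to 39.2 per 10000 for the row, 9.60 to 17.98 for the column and 0.385 to 8.15 elsewhere, with S100a6 above 3 times the background in 50.5% to 81.4% of cells and S100a11 in 64.9% to 94.1%. No paired analysis was possible because the cells form 1 group. Shallow cells limit the low members most: 1 read in the cell with the lowest total, 79868 counts, is already above 10 CPM.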
